A study of Mus musculus with 16 samples.

Results

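The genes described here were 46 genes of DNA replication and mitosis, taken by their symbols from the 40840 genes of the count table. They fell into 24 G1/S replication genes and 22 G2/M mitotic genes. Membership was set by name and by no threshold on measured values, but the genes were chosen with earlier results of these data known. They were measured in p53-/-; Myc hepatoblasts, a mouse liver progenitor line used as a model of hepatocellular carcinoma, in which the tumor suppressor p53 is knocked out and the Myc oncogene is overexpressed; both alterations were shared by treated and control cells. Cells received sorafenib, a multikinase inhibitor, at 8.5 µM, or the vehicle DMSO, for 48 hours or 7 days, with 4 libraries in each of the 4 groups (16 in all). The sources do not say whether the 4 libraries of a group came from separate cultures, so p-values measure the spread between these libraries, which may be technical. The comparisons asked how sorafenib-treated cells differed from DMSO cells at each time, whether that difference changed between the times, and whether the G1/S and the G2/M genes moved alike.

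Replication genes are transcribed mainly at the passage from G1 into S phase. Origins are first licensed in G1, when the origin recognition complex, Cdc6 and Cdt1 load the Mcm2-7 ring onto DNA; the ring is then activated by joining Cdc45 and the GINS complex, and polymerases copy the strands. E2F factors bind the promoters of many of these genes, E2f1 and E2f2 as activators and E2f7 and E2f8 as repressors. Mitotic genes peak later, in G2 and M, and many carry a CHR element, through which the DREAM complex represses and the B-Myb-MuvB and Foxm1 complexes activate transcription. In a cycling liver progenitor line both sets are abundantly transcribed. In bulk RNA a smaller share of cells in a given phase cannot be told apart from less RNA per cell.

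The promoters of the 2 lists differed in these motifs. In windows from 250 bases before to 50 bases after the transcription start (GRCm39, canonical transcripts of GENCODE release M39), matched for all 46 members, an E2F word (TTTCCCGC, TTTGGCGC, TTTCGCGC or TTTGCCGC, on either strand) was present in 14 of 24 G1/S members (58.3%) and in 1 of 22 G2/M members (4.55%), Cdk1. Among the promoters of the 14626 tested protein-coding genes with such a window, 3.57% held one. A CHR word (TTTGAA or TTCGAA, on either strand) was present in 11 of 22 G2/M members and in 2 of 24 G1/S members (8.33%), Mcm2 and Fen1, against 15.6% of all these promoters. CCAAT was found in 18 G1/S and 15 G2/M members, against 38.9% of all. These are counts of letters within one window, and 9 of 50 other replication genes held an E2F word. Upstream bases are shown for 2 G1/S and 3 G2/M members, from among those with the largest fold change at 7 days whose motif lay before the start; each reads 5′ to 3′ toward the transcription start, with E2F words in capitals in Mcm5 and Mcm4 and CHR words in capitals in Bub1b, Cdc20 and Ccnb2.
Mcm5, chr8:75835890-75836139, plus strand: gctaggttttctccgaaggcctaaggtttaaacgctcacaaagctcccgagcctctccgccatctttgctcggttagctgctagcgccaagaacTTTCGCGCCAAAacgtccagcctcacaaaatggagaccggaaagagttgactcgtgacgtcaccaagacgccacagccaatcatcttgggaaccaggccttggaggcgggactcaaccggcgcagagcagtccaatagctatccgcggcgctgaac
Mcm4, chr16:15455265-15455514, minus strand: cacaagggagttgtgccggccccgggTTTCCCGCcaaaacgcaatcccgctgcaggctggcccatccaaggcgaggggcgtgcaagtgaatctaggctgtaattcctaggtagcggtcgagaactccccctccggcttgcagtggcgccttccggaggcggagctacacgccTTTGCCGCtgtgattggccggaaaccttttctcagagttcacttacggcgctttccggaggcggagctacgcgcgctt
Bub1b, chr2:118428434-118428683, plus strand: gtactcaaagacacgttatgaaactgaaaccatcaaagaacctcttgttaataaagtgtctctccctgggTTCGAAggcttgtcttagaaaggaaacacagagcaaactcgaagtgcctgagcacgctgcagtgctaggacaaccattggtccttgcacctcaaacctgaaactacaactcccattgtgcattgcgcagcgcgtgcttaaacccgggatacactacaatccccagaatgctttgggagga
Cdc20, chr4:118294611-118294860, minus strand: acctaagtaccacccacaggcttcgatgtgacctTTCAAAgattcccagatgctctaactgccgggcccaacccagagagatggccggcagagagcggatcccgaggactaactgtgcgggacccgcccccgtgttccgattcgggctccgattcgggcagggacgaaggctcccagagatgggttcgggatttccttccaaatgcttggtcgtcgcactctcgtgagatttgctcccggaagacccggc
Ccnb2, chr9:70328875-70329124, minus strand: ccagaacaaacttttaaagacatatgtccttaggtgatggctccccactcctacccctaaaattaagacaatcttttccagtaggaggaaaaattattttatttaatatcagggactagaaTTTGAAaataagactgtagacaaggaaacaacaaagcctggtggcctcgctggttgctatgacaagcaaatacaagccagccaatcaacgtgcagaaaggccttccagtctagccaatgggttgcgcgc
The base before the transcription start is position -1. The Mcm5 words began at -156 and -152 and overlapped, and the Mcm4 words began at -224 and -78. The CHR words shown began at -180 in Bub1b, -216 in Cdc20 and -129 in Ccnb2. Ccnb2 also held a CHR word after the start, at 43, outside the bases shown.

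Library totals ran from 16586254 to 30828427 reads counted in genes, with a median of 26360677, and the lowest normalised count of any member in any library was 268, so all 46 members passed the filter. One library stood apart. In sorafenib 48 hours replicate 2 the counts stepped down along the genome, from a place on chromosome 14 onward through chromosomes 15 to 19 and X, to 0.605 times their level before it, where no other library stepped by more than 0.0394 on the log2 scale. Mcm4, Cdc45, Pola1, Fen1, Kif11 and Kif20a lie in that stretch, and a number of results are given with and without that library. Genes outside the stretch also shifted without it. At 48 hours the log2 fold change of Foxm1 went from 0.38 to 0.32 and that of Mcm2 from 0.40 to 0.38. Of the cell type markers, Hnf4a was listed at 0 in every library and Alb did not exceed 0.984 normalised counts. The hepatoblast marker Afp was hardly read. Its group means were 0.217 in DMSO and 1.09 in sorafenib at 48 hours, and 9.45 and 4.01 at 7 days. The hepatoblast marker Dlk1 and the bile duct markers Krt19 and Krt7 were read and stood lower with sorafenib. Group means of Dlk1 were 32230.0 in DMSO and 10440.0 in sorafenib at 48 hours, and 16770.0 and 4020.0 at 7 days. Those of Krt7 were 1877 and 489.9, then 3643 and 111. Foxa2 and Cdh1 stood higher: Foxa2 at 211 and 722, then 480 and 862, and Cdh1 at 58.2 and 72.6, then 74.9 and 196. Of the 8 hepatoblast and hepatocyte markers 6 were tested, with 1 called higher and 3 lower at 48 hours and 2 higher and 4 lower at 7 days. Their median log2 fold changes were -0.052 and -1.01. The 4 bile duct markers had median log2 fold changes of -1.35 and -1.59, with 3 lower and 1 higher at each time. The higher one was Sox9, with group means of 212.5 and 664, then 350 and 904. Among the 6 fibroblast and stellate markers the directions were mixed: Col1a1 went from 41940.0 to 81070.0 at 48 hours and Pdgfra from 1528 to 354, Lrat was listed at 0, and the median was -0.30 at 48 hours (2 higher, 2 lower) and -0.61 at 7 days (2 higher, 3 lower). Their sum, carried by Col1a1, stood between 43760.0 and 46480.0 in DMSO and between 79690.0 and 86090.0 in sorafenib libraries at 48 hours, and at 42260.0 to 44770.0 and 52270.0 to 54150.0 at 7 days. The summed leukocyte markers did not exceed 157 and the summed endothelial markers 222. Their part in the results was not tested. Trp53 reads remained in every group (means of 1843 to 3690.0 normalised counts), and as the deleted part of the gene is not given in the sources used here, they check nothing.

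Most members were lower with sorafenib, at both times, and by less than 2-fold with the exception of E2f8 at 7 days. At 48 hours 36 of 46 passed the test (edgeR quasi-likelihood test, adjusted p under 0.05 over all genes), 32 lower and 4 higher, where 54.6% of the 20444 tested genes were called, 27.7% lower and 26.9% higher. At 7 days 37 of 46 passed, 33 lower and 4 higher, against a background of 56.8% (27.9% lower, 28.9% higher). The median log2 fold change of the members was -0.35 at 48 hours and -0.28 at 7 days, beside -0.051 and 0.020 over all tested genes. The DMSO and sorafenib libraries did not overlap for 37 members at 48 hours and 41 at 7 days, as was so for 48.0% and 56.8% of all tested genes. Lower at both times were 28 members, 14 of each list (the 7-day call of Mcm4 was lost under 9 alternatives), Mcm2 and Foxm1 were higher at both times, and Aurka was higher at 48 hours and lower at 7 days. Orc1, Cdc45, E2f7 and Bub1 passed at neither time. Without sorafenib 48 hours replicate 2, 40 of 46 passed at 48 hours (35 lower), where 57.0% of all genes did, and Orc1, Pole, E2f7 and Bub1 were the members gained. At 7 days 41 then passed (36 lower), as did 12590 of 20353 tested genes.

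**Figure D1:**
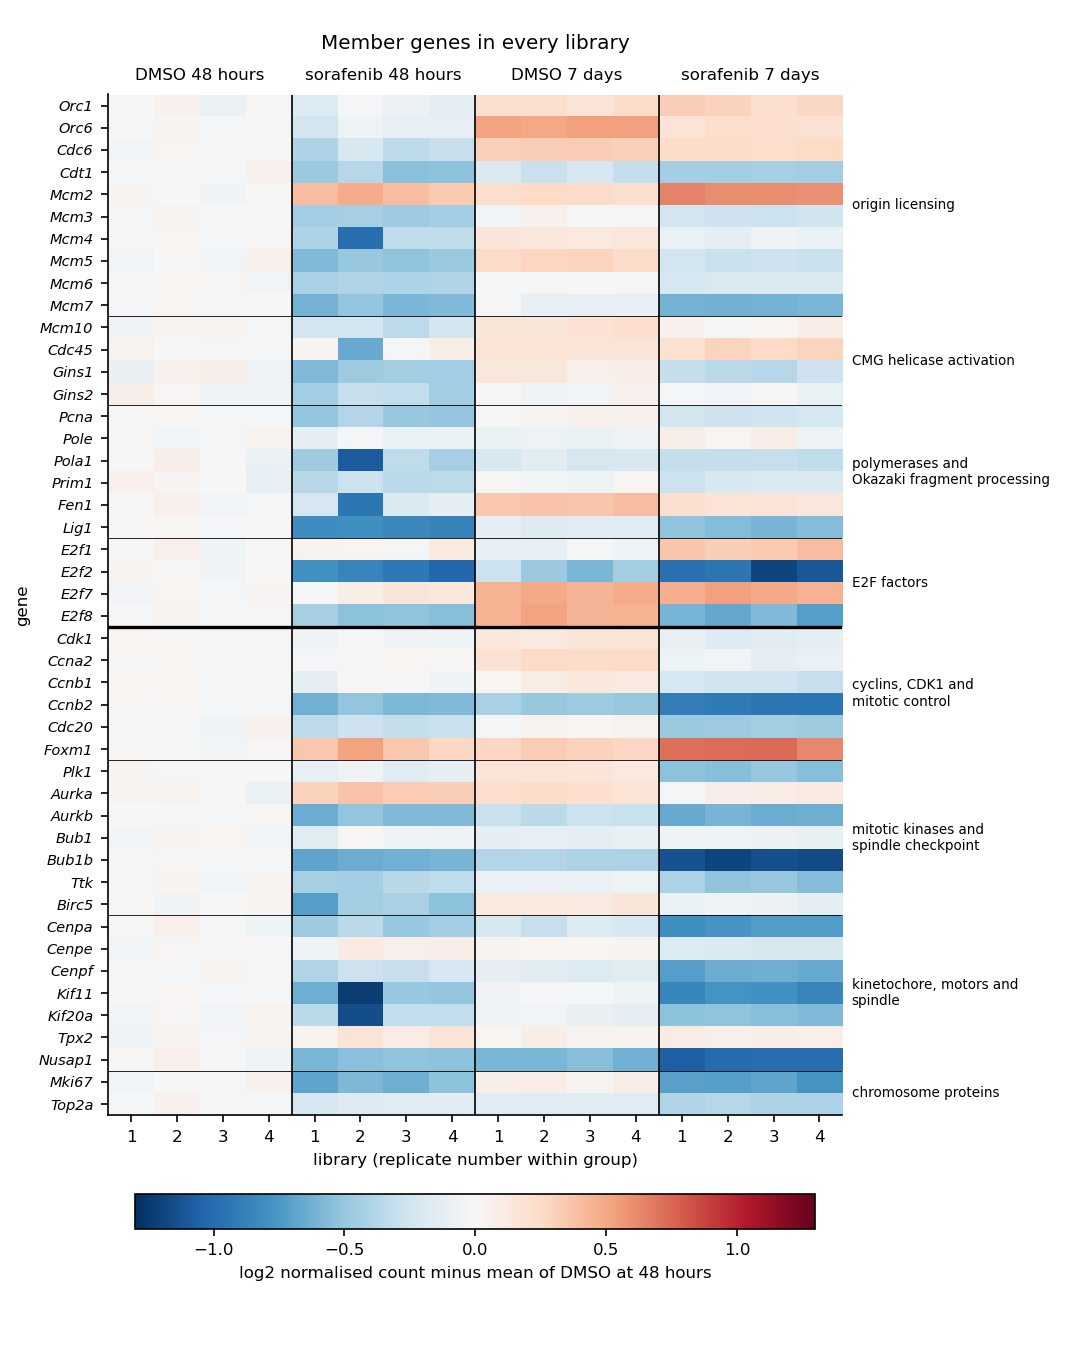
Log2 normalised count of each of the 46 members (rows, grouped by role) in each of the 16 libraries (columns, replicates 1 to 4 of each group), minus that gene's mean in the 4 DMSO libraries at 48 hours; blue is lower and red is higher. Most rows are blue in the sorafenib libraries, Mcm2 and Foxm1 are red there, and in sorafenib 48 hours replicate 2 the 6 genes Mcm4, Cdc45, Pola1, Fen1, Kif11 and Kif20a are lower than in the other libraries of that group.

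The licensing genes fell at 48 hours, with the exception of Mcm2 and Orc1. In all, 9 of 10 passed the test at 48 hours (1 higher, 8 lower) and 8 at 7 days (1 higher, 7 lower). For this role and those that follow, the share of all tested genes called was 54.6% at 48 hours (27.7% lower). At 7 days it was 56.8% (27.9% lower). Mcm7 (chr5:138162844-138170684 on GRCm39, as are all gene spans given here), a subunit of the Mcm2-7 ring, had the largest change of the role: it stood at 8564, 8820.3, 8509 and 8709 normalised counts with DMSO and 5641, 6058, 5717 and 5822 with sorafenib at 48 hours. At 7 days the counts of Mcm7 were 8504, 8056, 8026 and 8048 with DMSO and 5650.0, 5628, 5653 and 5738 with sorafenib. All sorafenib libraries were below all DMSO libraries at both times, with log2 fold changes of -0.57 ± 0.0294 (SE) at 48 hours and -0.53 ± 0.0293 (SE) at 7 days (adjusted p = 1.16e-12 and 4.22e-12). An exact two-sided permutation test gave p = 0.0286 for each, the smallest that 4 against 4 libraries allow.

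Orc1 (chr4:108436540-108473245), the largest subunit of the origin recognition complex, changed least. It was read at 693, 717, 647 and 697 normalised counts with DMSO and 610.4, 679, 655 and 630.3 with sorafenib at 48 hours, and at 795, 808, 771 and 813 and 859, 850.3, 803 and 830.3 at 7 days. The groups overlapped at both times (log2 fold changes of -0.099 ± 0.0458 (SE) and 0.069 ± 0.0434 (SE); adjusted p = 0.0762 and 0.192), and without sorafenib 48 hours replicate 2 the 48-hour value passed, at -0.12 (adjusted p = 0.038). Orc6, another subunit of the complex, fell by 0.13 on the log2 scale at 48 hours and by 0.32 at 7 days. The loaders Cdc6 and Cdt1 fell at 48 hours by 0.31 and 0.48. At 7 days Cdt1 was still lower, at -0.19, and Cdc6, at -0.075, did not pass (adjusted p = 0.0809), although its groups did not overlap and it was called lower under 5 alternatives, DESeq2 and leaving out sorafenib 48 hours replicate 2 among them (-0.076, adjusted p = 0.0314).

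Within the Mcm2-7 ring, whose 6 subunits assemble in equal number, Mcm2 went against the other subunits. Mcm3, Mcm4, Mcm5, Mcm6 and Mcm7 fell at 48 hours, by 0.45, 0.48, 0.52, 0.40 and 0.57 on the log2 scale. Mcm2 rose instead, from 6223, 6027, 5878 and 6117 normalised counts with DMSO to 8002, 8454, 7988 and 7662 with sorafenib (0.40 ± 0.0310, adjusted p = 6.46e-10). At 7 days Mcm2 stood at 7079.9, 7272, 7145 and 7008 with DMSO and 9455, 9241, 9189 and 9131 with sorafenib, a log2 fold change of 0.38 ± 0.0308 with no overlap. The other subunits were again lower, with -0.27 for Mcm3, -0.23 for Mcm4, -0.54 for Mcm5, -0.19 for Mcm6 and -0.53 for Mcm7. The 7-day call of Mcm4 (adjusted p = 0.0327) was lost without any 1 of the 4 DMSO libraries at 7 days, and it held without sorafenib 48 hours replicate 2 (adjusted p = 6.56e-12). Mcm4 lies in the stretch where 1 library was low, at 3036 against 4543 to 4783 in the other 3 libraries of its group, and without that library its log2 fold change at 48 hours was -0.35 (adjusted p = 1.34e-16).

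Of the genes that turn the licensed ring into an active helicase, Gins1 and Mcm10 were lower at both times. In all, 3 of 4 passed the test at 48 hours (0 higher, 3 lower) and 2 at 7 days (0 higher, 2 lower). Gins1 (chr2:150747320-150773202), a GINS subunit, stood at 484, 538, 543 and 501 normalised counts with DMSO and 347, 374, 377 and 376 with sorafenib at 48 hours. Its counts at 7 days were 572, 572, 539 and 547 with DMSO and 416, 405, 399 and 427 with sorafenib. The groups were apart at both times, with log2 fold changes of -0.49 ± 0.0525 (SE) and -0.44 (adjusted p = 1.12e-07 and 2.35e-07). Gins2 (chr8:121305372-121316043), its partner subunit, stood at 1121, 1069.7, 1027 and 1027 with DMSO and 776, 863, 849 and 776 with sorafenib at 48 hours, then at 1057, 1029, 1036 and 1104 and 1043, 1031, 1063 and 998 at 7 days. Gins2 was therefore apart at 48 hours (-0.38 ± 0.0460 (SE)) and overlapping at 7 days (-0.031 ± 0.0444 (SE), adjusted p = 0.584). Mcm10, which helps to open the helicase, fell by 0.27 at 48 hours and by 0.14 at 7 days. Cdc45 did not pass at either time (-0.11 and 0.090), and without the library with lowered counts its log2 fold change was 0.029 at 48 hours and 0.091 at 7 days, the latter passing (adjusted p = 0.0133).

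Among polymerase and Okazaki fragment genes the ligase changed most. In all, 5 of 6 passed the test at 48 hours (0 higher, 5 lower) and 4 at 7 days (1 higher, 3 lower). Lig1 (chr7:13011239-13045350), the ligase that seals Okazaki fragments, stood at 4581, 4572, 4458 and 4537 normalised counts with DMSO and 2592, 2605, 2533 and 2489.5 with sorafenib at 48 hours. Seven-day counts of Lig1 were 4195, 4039.8, 4083 and 4067 with DMSO and 3162, 3072, 2977 and 3078 with sorafenib. The sorafenib libraries were below all DMSO libraries at both times, at 0.563 times the DMSO level at 48 hours and 0.750 times at 7 days (log2 -0.83 ± 0.0294 (SE) and -0.42 ± 0.0290 (SE); adjusted p = 3.33e-15 and 1.48e-10). Pole (chr5:110434172-110486287), the leading-strand polymerase catalytic subunit, stood at 3831, 3710.5, 3744 and 3908 with DMSO and 3501, 3739.5, 3578 and 3568 with sorafenib at 48 hours and at 3571, 3639.8, 3574 and 3619 and 4004, 3874, 4021 and 3692 at 7 days. Pole groups overlapped at 48 hours (-0.079, adjusted p = 0.0506) and Pole was higher at 7 days (0.11, adjusted p = 0.00569). Pcna, the sliding clamp, fell by 0.47 and 0.29, and the primase Prim1 by 0.33 and 0.20. Pola1, the primer-extending polymerase, and Fen1, the flap endonuclease, fell at 48 hours by 0.55 and 0.32, and by 0.41 and 0.17 without the library with lowered counts. Their 7-day values of -0.12 and -0.19 passed only without that library (adjusted p = 0.000857 and 1.37e-07; 0.307 and 0.106 with it).

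The 4 E2F factors split. E2f8 (chr7:48516176-48531452), a repressor, had the largest fold change of any member at 7 days: it stood at 984, 1025, 987 and 1009 normalised counts with DMSO and 739, 689.5, 699 and 680.3 with sorafenib at 48 hours. At 7 days E2f8 was read at 1373, 1440.0, 1363 and 1367 with DMSO and 657, 630.2, 674 and 609 with sorafenib. The sorafenib libraries lay below all DMSO libraries, at 0.700 times their level at 48 hours and 0.464 times at 7 days (log2 -0.51 ± 0.0421 (SE) and -1.11 ± 0.0409 (SE); adjusted p = 1.87e-09 and 5.91e-15). E2f7 (chr10:110581300-110623245), the other repressor of this pair, stood at 1113, 1159, 1116 and 1166 with DMSO and 1122, 1209.7, 1271 and 1255 with sorafenib at 48 hours and at 1559, 1606, 1548 and 1592 and 1585, 1645, 1599 and 1555 at 7 days. E2f7 groups overlapped at both times (0.095 and 0.018; adjusted p = 0.0525 and 0.713). The activators went opposite ways at 7 days: E2f2 was lower at both times, with the largest fold change of any member at 48 hours (-0.90 and -0.60), while E2f1, at 0.046 and not called at 48 hours, rose to 1559 ± 40.2 against 1159.7 ± 30.7 normalised counts (SD, n = 4) at 7 days, a log2 fold change of 0.43 (adjusted p = 1.13e-08).

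**Figure D2:**
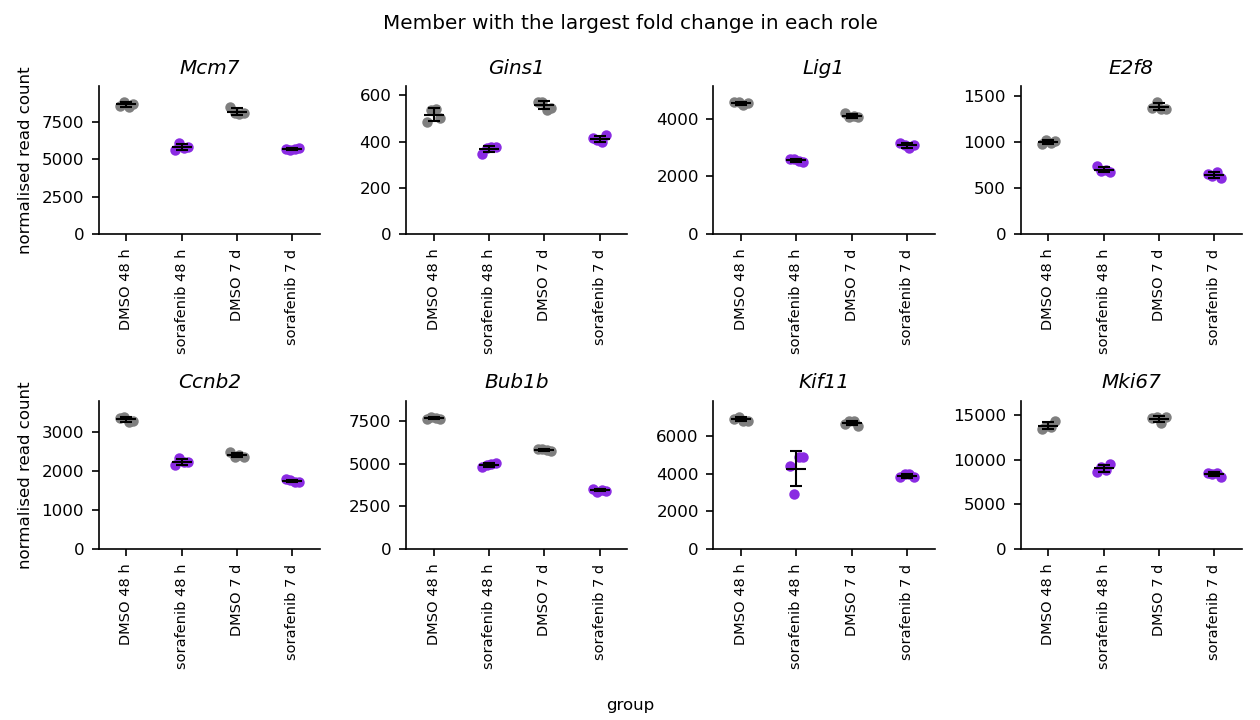
Normalised read counts (linear axis from 0) of the member with the largest fold change in each of the 8 roles, in the 4 libraries of each group (points), with the mean and SD (bars). In all 8 genes the sorafenib libraries lie below the DMSO libraries of the same time, and the low point of Kif11 at 48 hours is sorafenib replicate 2.

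Of the mitotic entry genes, Cdk1 and cyclins A2 and B1 passed at 7 days and not at 48 hours. In all, 3 of 6 passed the test at 48 hours (1 higher, 2 lower) and 6 at 7 days (1 higher, 5 lower). Ccna2 (chr3:36619014-36626299), cyclin A2, stood at 6372, 6528, 6391 and 6344 normalised counts with DMSO and 6309.8, 6458, 6504 and 6468 with sorafenib at 48 hours. By 7 days Ccna2 was at 7340.4, 7692, 7542 and 7667 with DMSO and 6111, 6258, 5872 and 6030.2 with sorafenib. The groups overlapped at 48 hours (0.0060 ± 0.0278 (SE), adjusted p = 0.877) and were apart at 7 days (-0.32 ± 0.0277 (SE), adjusted p = 4.66e-09). Cdk1, the mitotic kinase that cyclins A and B activate, showed -0.047 at 48 hours (adjusted p = 0.151), where its groups did not overlap and it was called lower under 11 alternatives including DESeq2, and fell by 0.28 at 7 days. Ccnb1, cyclin B1, showed -0.040 (adjusted p = 0.342) and fell by 0.35 at 7 days. Ccnb2 (chr9:70314966-70328874), cyclin B2, was already apart at 48 hours, with 3362, 3390.4, 3257 and 3282 normalised counts under DMSO and 2157, 2326, 2222 and 2224 under sorafenib, and remained so at 7 days, with 2484, 2367, 2411 and 2364 and 1785, 1758, 1731 and 1731. Its log2 fold changes were -0.57 ± 0.0318 (SE) and -0.46 ± 0.0320 (SE) (adjusted p = 4.03e-12 and 1.46e-10). Cdc20, the activator of the anaphase-promoting complex, fell by 0.31 and 0.49. Foxm1, a transcription factor of G2/M genes, rose, from 3195, 3174, 3074 and 3196 to 4039.6, 4548, 4021 and 3801 at 48 hours and from 3797, 3977, 3888 and 3809 to 5205, 5216, 5264 and 4871 at 7 days (log2 0.38 and 0.41; adjusted p = 3.13e-07 and 7.25e-08), with no overlap at either time.

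Most mitotic kinases and spindle checkpoint genes fell, and Bub1 passed at neither time. In all, 6 of 7 passed the test at 48 hours (1 higher, 5 lower) and 6 at 7 days (0 higher, 6 lower). Bub1b (chr2:118428684-118472076), the checkpoint protein BubR1, stood at 7642, 7738, 7697 and 7612 normalised counts with DMSO and 4780.4, 4919, 4971 and 5036 with sorafenib at 48 hours. The 7-day counts of Bub1b were 5878, 5878, 5786 and 5766 with DMSO and 3494, 3364, 3480.1 and 3420.4 with sorafenib. It was apart at both times, at 0.642 and 0.590 times the DMSO level (log2 -0.64 ± 0.0265 (SE) and -0.76 ± 0.0266 (SE); adjusted p = 3.83e-14 and 2.51e-15). Bub1 (chr2:127643036-127673806), the kinase related to it, was read at 3372, 3544, 3522 and 3379 with DMSO and 3133, 3490.0, 3338 and 3355 with sorafenib at 48 hours and at 3158, 3196, 3162 and 3234 and 3317, 3342, 3282 and 3227 at 7 days. Bub1 groups overlapped at both times (-0.053 and 0.046; adjusted p = 0.192 and 0.25), and without sorafenib 48 hours replicate 2 the 48-hour value was -0.075 (adjusted p = 0.0262). Plk1, polo-like kinase 1, changed more at 7 days: the counts were 4219.8, 4040.1, 4114 and 4098 with DMSO and 3811, 3984, 3699 and 3773 with sorafenib at 48 hours (-0.11), and 4626, 4637, 4588 and 4483 with DMSO and 2846, 2803, 2926 and 2806 with sorafenib at 7 days (-0.69). Aurka, Aurora kinase A, turned: sorafenib libraries stood at 2979, 3130.1, 3043 and 3027 over DMSO at 2494, 2498, 2445 and 2281 at 48 hours (0.33, adjusted p = 2.24e-07), and at 2396, 2587, 2591 and 2628 under DMSO at 2829.6, 2869.7, 2824 and 2750.0 at 7 days (-0.14, adjusted p = 0.00226). Aurkb, the chromosomal passenger kinase, fell by 0.58 and 0.33, and its partner Birc5, survivin, by 0.53 and 0.22. Ttk, the Mps1 kinase, fell by 0.39 and 0.42.

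Kinetochore, motor and spindle genes were lower except Tpx2 and, at 48 hours, Cenpe. In all, 6 of 7 passed the test at 48 hours (1 higher, 5 lower) and 6 at 7 days (0 higher, 6 lower). Kif11 (chr19:37364799-37410307), the kinesin that separates spindle poles, stood at 6924, 7037, 6816 and 6829 normalised counts with DMSO and 4438, 2937, 4893 and 4880.2 with sorafenib at 48 hours. Counts of Kif11 at 7 days were 6674, 6832, 6798 and 6573 with DMSO and 3821, 4014, 3994 and 3809.9 with sorafenib. No sorafenib library reached a DMSO library, and the lowest, replicate 2 at 48 hours, is the one with lowered counts in this stretch: the log2 fold change at 48 hours was -0.68 ± 0.0978 (SE) with it and -0.54 without it, and -0.78 ± 0.0976 (SE) at 7 days (adjusted p = 5.06e-06, 5.640000000000001e-22 and 8.25e-07). Kif20a, the cytokinesis kinesin in the same stretch, fell by 0.49 at 48 hours (-0.33 without that library) and by 0.47 at 7 days. Tpx2 (chr2:152689854-152737245), the activator of Aurora kinase A, was at 7042, 7496, 7199 and 7482 with DMSO and 7550.2, 8212, 7784 and 8217 with sorafenib at 48 hours and at 7408, 7709.6, 7494 and 7476 and 7824, 7619, 7750.0 and 7658 at 7 days. Tpx2 was higher at 48 hours (0.12, adjusted p = 0.00323) and overlapped at 7 days (0.036, adjusted p = 0.357). Cenpa, the centromeric histone, fell by 0.43 and 0.53, Cenpf, a kinetochore protein, by 0.30 and 0.52, and Nusap1, a spindle microtubule protein, by 0.55 and 0.42. The kinetochore motor Cenpe showed 0.055 at 48 hours (adjusted p = 0.153) and fell by 0.22 at 7 days.

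Both chromosome proteins fell. Mki67 (chr7:135291513-135318299), the proliferation marker Ki-67, stood at 13446, 13821, 13663 and 14374 normalised counts with DMSO and 8617, 9218, 8891 and 9539 with sorafenib at 48 hours, and at 14692, 14755, 14152 and 14824 and 8478, 8437, 8574 and 8078 at 7 days. The groups were apart, at 0.656 and 0.575 times the DMSO level (log2 -0.61 ± 0.0335 (SE) and -0.80 ± 0.0335 (SE); adjusted p = 3.66e-12 and 4.45e-14). Top2a (chr11:98883769-98915062), topoisomerase II alpha, was at 24042, 25455, 24454 and 24266 with DMSO and 21172, 21781, 22019 and 22378 with sorafenib at 48 hours, and at 22377, 22073, 22345 and 21964 and 18683, 18964, 18644 and 18654 at 7 days. Top2a was also apart at both times, by less: -0.17 ± 0.0255 (SE) and -0.24 ± 0.0255 (SE) (adjusted p = 9.98e-06 and 6.83e-08).

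The list with the lower median was G1/S at 48 hours and G2/M at 7 days. At 48 hours the median log2 fold change was -0.39 in the G1/S list and -0.30 in the G2/M list. Called lower were 18 of 24 and 14 of 22, against 27.7% of all tested genes. At 7 days the median was -0.19 in the G1/S list and -0.39 in the G2/M list, with 14 of 24 and 19 of 22 called lower, against 27.9% of all tested genes. The G2/M median minus the G1/S median was 0.087 at 48 hours and -0.19 at 7 days. The 4 G1/S genes called lower at 48 hours and not at 7 days were Cdc6, Gins2, Pola1 and Fen1, of which Gins2 alone kept this pattern without sorafenib 48 hours replicate 2, the other 3 then being called lower at 7 days. The 4 G2/M genes called lower at 7 days and not at 48 hours were Cdk1, Ccna2, Ccnb1 and Cenpe, with the 48-hour value of Cdk1 called under the alternatives named above.

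**Figure D3:**
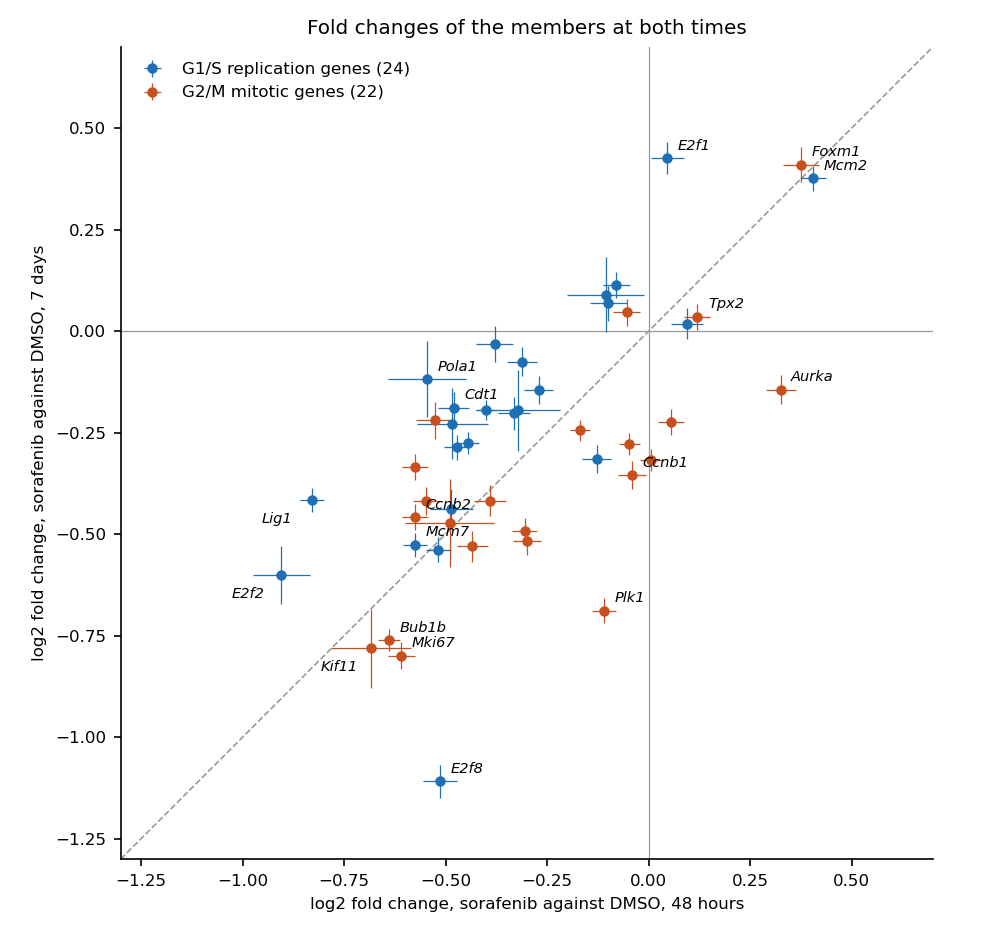
Log2 fold change of sorafenib against DMSO at 48 hours (horizontal) and at 7 days (vertical) for each member, with bars of 1 SE; the dashed line marks equal values. G1/S genes (blue) lie mostly above the line, where the 7-day value is the higher, and Plk1, Aurka and E2f8 lie farthest below it.

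The difference between the 2 responses was itself tested. Of 46 members 27 passed, 15 with a higher log2 fold change at 7 days than at 48 hours and 12 with a lower one; over all genes 36.8% passed, 15.5% higher and 21.3% lower. In the G1/S list 12 were higher and 2 lower, with a median difference of 0.18, and in the G2/M list 3 were higher and 10 lower, with a median of -0.097; the median over all genes was 0.022. Scaled by total counts alone, the split of the members was 21 higher and 7 lower, that of the G2/M list 5 and 6, and that of all genes 4125 and 3292 in place of 3162 and 4353. A difference between the median log2 values of the lists depends little on the scaling, since both are read in the same libraries. The counts of calls in each list do depend on it.

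The G1/S genes with the largest upward differences were Pola1 (0.43 ± 0.13), Lig1 (0.41 ± 0.0412), E2f1 (0.38 ± 0.0565) and Gins2 (0.35 ± 0.0639). For Pola1 the difference was 0.29 without the library with lowered counts. E2f8 went the other way, by -0.60 ± 0.0587 (adjusted p = 9.67e-08), as did Orc6, by -0.19. In the G2/M list the largest downward differences were those of Plk1 (-0.58 ± 0.0428, adjusted p = 1.61e-09), Aurka (-0.47 ± 0.0520), Ccna2 (-0.32 ± 0.0393), Ccnb1 (-0.31 ± 0.0482) and Cenpe (-0.28 ± 0.0447). Birc5 (0.31), Aurkb (0.24) and Nusap1 (0.13) were the G2/M genes with upward differences. The calls of Nusap1 and Orc1 (adjusted p = 0.0405 and 0.044) were each lost under 9 alternatives, a replicate block among them. Without sorafenib 48 hours replicate 2, 34 members passed, 15 G1/S genes higher and 2 lower, 5 G2/M genes higher and 12 lower, where 43.0% of all genes did.

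Between the sorafenib groups most genes of the 2 lists moved in opposite directions. From 48 hours to 7 days, 37 of 46 members passed, against 39.7% of all genes (17.5% higher, 22.3% lower). Of the G1/S genes 19 rose and 1 fell, with a median of 0.24, and of the G2/M genes 2 rose and 15 fell, with a median of -0.15. Cdc6 rose most, from 969.6, 1105, 1009.8 and 1037 to 1509.5, 1511, 1495 and 1529.7 normalised counts (0.55 ± 0.0373, adjusted p = 3.19e-10), and Bub1b fell most (-0.52 ± 0.0267, adjusted p = 5.55e-12). All 4 helicase activation genes and 5 of 6 polymerase and Okazaki fragment genes rose. E2f8 was the one G1/S gene called lower (-0.13), a call lost under 13 alternatives including DESeq2 and total counts, and E2f2, at -0.15, was not called. Among the lower G2/M genes the calls of Ttk, Ccna2 and Cdk1 were lost under 16, 12 and 12 alternatives. Foxm1 (0.33) and Birc5 (0.44) were the G2/M genes that rose. Without the library with lowered counts 41 passed, against 44.5% of all genes, with 21 G1/S genes higher and 17 G2/M genes lower; Kif11 then stood at -0.28 and Kif20a at -0.22, both called, in place of -0.14 and -0.059, not called. With DESeq2's size factors the split of the members was 22 higher and 11 lower in place of 21 and 16.

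**Figure D4:**
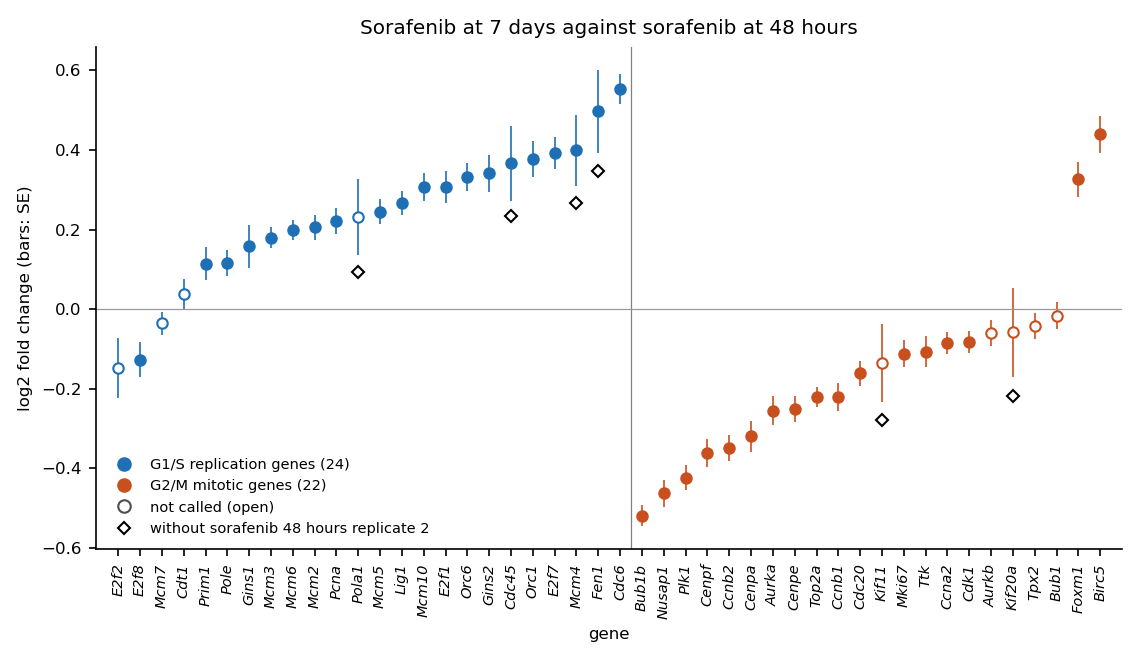
Log2 fold change of each member between the sorafenib groups, 7 days against 48 hours, with bars of 1 SE; filled points passed the test, open points did not, and diamonds give the 6 genes of the lowered stretch without sorafenib 48 hours replicate 2. Most G1/S genes (blue, left) lie above 0 and most G2/M genes (orange, right) below it, with Foxm1 and Birc5 above.

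Members also differed between the times in DMSO cells, in both directions within each list. Of 46 members 28 passed (16 higher, 12 lower at 7 days), against 49.4% of all genes (23.9% higher, 25.5% lower). The G1/S list held 9 higher and 4 lower genes, and the G2/M list 7 higher and 8 lower, with medians of 0.073 and -0.0066. Orc6 (0.52), E2f7 (0.47) and E2f8 (0.47) rose most, and Nusap1 (-0.59), Ccnb2 (-0.47) and E2f2 (-0.45) fell most. For E2f8 the sorafenib group at 7 days was -0.13 from its 48-hour level while the DMSO group was 0.47 from its own. Nusap1, Ccnb2 and Bub1b were lower at 7 days in both DMSO (-0.59, -0.47 and -0.40) and sorafenib cells (-0.46, -0.35 and -0.52). Scaled by total counts alone the split of the members was 14 higher and 16 lower. Sorafenib 48 hours replicate 2 also bears on this comparison, since all groups share 1 model. Without that library 35 members passed (19 higher, 16 lower), as did 11242 of 20353 tested genes.

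The list means were also taken in each library, on the log2 scale of normalised counts plus a prior count of 2. Relative to the mean of DMSO at 48 hours, the G1/S mean was -0.34, -0.39, -0.32 and -0.32 in the sorafenib libraries at 48 hours, 0.10, 0.094, 0.079 and 0.094 in the DMSO libraries at 7 days and -0.099, -0.11, -0.11 and -0.11 in the sorafenib libraries at 7 days. The G2/M mean was -0.30, -0.27, -0.24 and -0.23, then -0.055, -0.048, -0.049 and -0.054, then -0.41, -0.41, -0.40 and -0.43 in the same groups. The G1/S mean was lowest with sorafenib at 48 hours and the G2/M mean was lowest with sorafenib at 7 days, with no library of another group among them. The G2/M mean minus the G1/S mean was 0.96 ± 0.0065 (SD, n = 4) in DMSO at 48 hours, 1.04 ± 0.031 in sorafenib at 48 hours, 0.82 ± 0.011 in DMSO at 7 days and 0.65 ± 0.012 in sorafenib at 7 days, and no library overlapped another group. Without sorafenib 48 hours replicate 2 the second value was 1.03 ± 0.025.

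**Figure D5:**
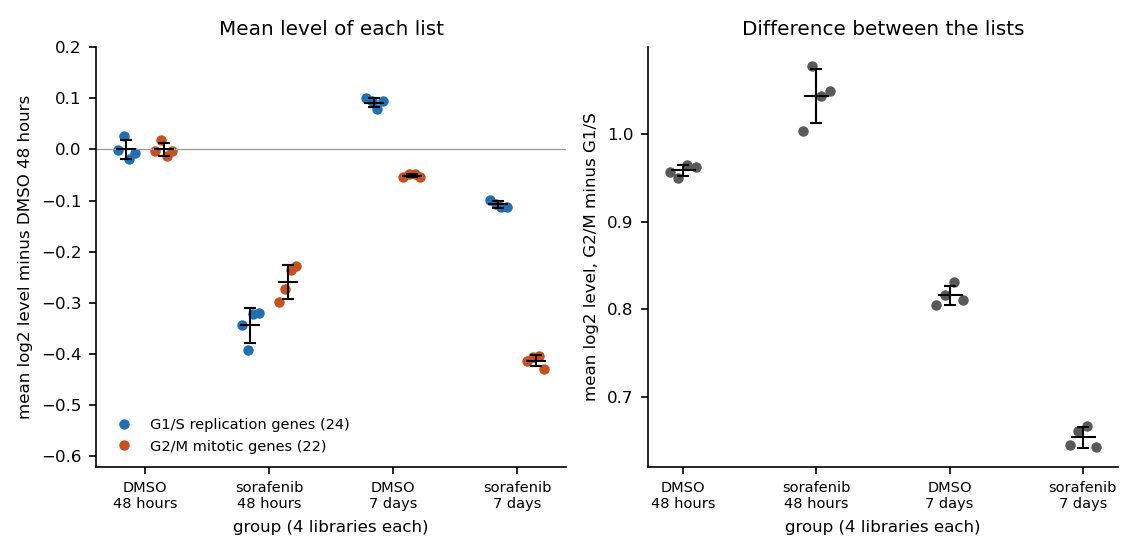
Left, mean log2 level of the 24 G1/S (blue) and 22 G2/M genes (orange) in each library, minus the mean of the DMSO libraries at 48 hours; right, mean log2 level of the G2/M genes minus that of the G1/S genes in each library. Points are libraries and black bars the mean and SD of 4; in the right panel sorafenib libraries lie above DMSO at 48 hours (1.04 against 0.96) and below it at 7 days (0.65 against 0.82).

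Per kilobase of exon, Top2a, Cdc20 and Pcna were the most abundant members in DMSO at 48 hours, at 2694 ± 68.4, 2448 ± 84.3 and 2051 ± 31.8 normalised counts per kilobase (SD, n = 4), and Orc1 the least, at 119.9 ± 5.16. Exon length was that of all annotated exons of a gene together (GENCODE release M39), so the order between genes depends on which transcripts are annotated. Neighbours in this order such as Mcm7 (1541 ± 25.1) and Mcm6 (1540.0 ± 29.2) did not differ beyond their spread. Bub1b went from place 4 of 46 in DMSO at 48 hours to place 18 in sorafenib at 7 days, and Mcm2 from place 21 to place 7. Of the Mcm2-7 subunits, Mcm2 was the least abundant per kilobase in DMSO at 48 hours, at 765 ± 18.5 beside 880.1 ± 28.2 for Mcm5, and in sorafenib at 7 days, at 1168 ± 17.9, it was second to Mcm6, at 1339 ± 19.9.

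Further replication and mitotic genes gave list medians nearer to 0 than the members in both comparisons of sorafenib with DMSO. They were listed by role, though with earlier results of these data known. For all the lists that follow, the share of all tested genes called was 54.6% at 48 hours and 56.8% at 7 days. Among other replication genes, 45 of 50 passed the test at 48 hours (9 higher, 36 lower) and 37 at 7 days (9 higher, 28 lower), with medians of -0.24 and -0.17. Dna2, the flap nuclease and helicase, changed most, with 1182 ± 9.71 normalised counts in DMSO and 548 ± 23.9 in sorafenib at 48 hours, and 1002 ± 31.9 and 385 ± 21.4 at 7 days (log2 -1.11 and -1.38; adjusted p = 2.71e-14 and 1.06e-15). Recql4, a helicase of replication initiation, rose by 1.01 and 1.35, and Mtbp, a partner of the origin-firing factor Treslin, by 0.91 and 0.61; without the library with lowered counts their 48-hour values were 1.15 and 1.04. Among other mitotic genes, 55 of 79 passed the test at 48 hours (19 higher, 36 lower) and 62 at 7 days (15 higher, 47 lower), with medians of -0.087 and -0.26. Ccnf, cyclin F, fell by 0.95 and 1.14 (-0.82 at 48 hours without that library), Sapcd2, a spindle orientation protein, fell by 0.48 and 0.99, and Anln, the cytokinesis scaffold anillin, rose by 1.09 and 0.61. The difference between the responses was called higher in 13 and lower in 10 of the 50 other replication genes (median 0.089). It was called higher in 6 and lower in 31 of the 79 other mitotic genes (median -0.13). Over all tested genes 15.5% were called higher and 21.3% lower. Without sorafenib 48 hours replicate 2 the other replication genes held 24 higher and 11 lower. The other mitotic genes then held 9 higher and 43 lower. Of all 20353 genes tested without that library, 3683 were higher and 5078 lower.

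The DREAM and RB-E2F regulators were mixed in direction, while most of the checkpoint genes that were called were higher. Among DREAM and RB-E2F genes, 13 of 16 passed the test at 48 hours (7 higher, 6 lower) and 14 at 7 days (6 higher, 8 lower). Mybl1, the Myb factor A-Myb, stood at 851 ± 57.8 normalised counts in DMSO and 352 ± 19.3 in sorafenib at 7 days (-1.28; -0.26 at 48 hours). E2f5, a repressor subunit of the DREAM complex, fell by 0.18 and 0.81. Lin54, the subunit that binds the CHR, rose by 0.76 and 0.31. Among the checkpoint kinases and phosphatases that were tested, 11 of 15 passed the test at 48 hours (10 higher, 1 lower) and 7 at 7 days (6 higher, 1 lower), the latter a smaller share than that of all genes. The kinases of the DNA damage response Atm (0.75 and 0.65) and Atr (0.72 and 0.56) and the phosphatase Cdc14b (0.84 and 0.39) rose at both times.

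Among ubiquitin ligase genes (APC/C and SCF), which time the destruction of cyclins and licensing factors, 14 of 20 passed the test at 48 hours (4 higher, 10 lower) and 19 at 7 days (4 higher, 15 lower). The APC/C subunits Cdc26 (-0.73 and -0.71) and Anapc13 (-0.68 and -0.47) fell, as did Skp2, the F-box protein of SCF (-0.65 and -0.69, and -0.50 at 48 hours without the library with lowered counts). Among histone chaperone, cohesin and condensin genes, 20 of 26 passed the test at 48 hours (4 higher, 16 lower) and 18 at 7 days (1 higher, 17 lower). Nasp, a histone chaperone, went from 10660.0 ± 144 normalised counts in DMSO to 5413 ± 112 in sorafenib at 7 days (-0.98; -0.57 at 48 hours). Ncapd2, a condensin I subunit, fell by 0.68 and 0.73, and Esco1, a cohesin acetyltransferase, by 0.43 and 0.65 (-0.33 at 48 hours without that library).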

How the data were processed

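RNA was measured by stranded mRNA sequencing in 16 libraries of p53-/-; Myc hepatoblasts. Per the submitters' processing notes, the authors aligned reads with STAR 2.7.1a, counted them per gene with featureCounts 2.0.6 and used DESeq2 1.40.2; the build was GRCm39, and the annotation and strand setting of the counting are not given in the sources used here. The deposited values are raw counts per gene for each library, so counting noise is visible, and overlapping or near-identical genes may share or lose reads. The sorafenib dose comes from the study's methods.

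Genes with at least 10 counts in all libraries together were tested (20444 of 40840) in R 4.3.3 with edgeR 4.0.16 (TMM scaling, quasi-likelihood test, 1 model of the 4 groups over all libraries), with Benjamini-Hochberg adjustment over all tested genes and a threshold of 0.05. Normalised counts are counts on the TMM-scaled library size. The steps were tested on simulated data. The 46 members and the further lists were chosen with earlier results of these data known. All members are named; counts in each library are given, in each role, for the member with the largest and the member with the smallest fold change at either time, and further genes named are up to 3 called genes a list with the largest change. Mcm2, Foxm1, Plk1, Aurka and Cdc6 are shown by library after their values were seen.

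The replicates of a group were compared in pairs, and the SD of the log2 ratio of 2 replicates was 0.107 to 0.159 over 10660 genes, and 0.333 to 0.334 for pairs with sorafenib 48 hours replicate 2. No pair agreed within sampling noise (the lowest chi-square per gene was 1.576). Promoter windows and gene spans came from GENCODE release M39 on the same build; 2 windows that rank higher by fold change are not reported here. Alternatives were DESeq2 1.42.0, limma 3.58.1 (voom), other scalings and filters, a fold change threshold, a replicate block, only the groups compared, and leaving out each library.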

Additional observations from a re-analysis of the deposited data

Results flagged for a closer look

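Of 184 sets of 4 libraries (46 members in 4 groups), 13 (7.07%) held 1 library far from the other 3, where chance gives about 1 in 20. In sorafenib 48 hours replicate 2 the normalised counts of Mcm4 (3036), Cdc45 (818), Fen1 (857) and Kif20a (1308), which lie in its lowered stretch, were below the other 3 libraries, and those of Pcna (3791) and Prim1 (1369), which do not, were above them. In the other groups and libraries the far values were Cdt1 in DMSO 48 hours replicate 4 (4564), Mcm10 in sorafenib 48 hours replicate 3 (1546), Gins1 in sorafenib 48 hours replicate 1 (347), Mcm7 in DMSO 7 days replicate 1 (8504), E2f8 in DMSO 7 days replicate 2 (1440.0), Foxm1 in sorafenib 7 days replicate 4 (4871) and Top2a in sorafenib 7 days replicate 2 (18964).

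The response to sorafenib differed between 7 days and 48 hours in 27 members by the edgeR test of the difference itself. The log2 fold change at 7 days minus that at 48 hours was positive for the licensing genes Orc1 (0.17), Cdc6 (0.24), Cdt1 (0.29), Mcm3 (0.17) and Mcm6 (0.21). It was also positive for Gins2 (0.35), Pcna (0.19), Pole (0.19), Pola1 (0.43), Lig1 (0.41), E2f1 (0.38) and E2f2 (0.30). In the G1/S list it was negative for Orc6 (-0.19) and E2f8 (-0.60). In the G2/M list it was negative for Cdk1 (-0.23), Ccna2 (-0.32), Ccnb1 (-0.31), Cdc20 (-0.19), Plk1 (-0.58), Aurka (-0.47), Bub1b (-0.12), Cenpe (-0.28), Cenpf (-0.22) and Mki67 (-0.19), and positive for Aurkb (0.24), Birc5 (0.31) and Nusap1 (0.13). The calls of Orc1 and Nusap1 were each lost under 9 alternatives.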

How the results depend on the processing

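The number of members called stayed within 1.5 times under every alternative but 1: with a log2 fold change of at least 1 added, 0 members passed at 48 hours, 1 at 7 days (E2f8), and 0 in the other 3 comparisons, since fewer genes reach that size. The G2/M median minus the G1/S median was 0.087 at 48 hours, -0.19 at 7 days, -0.27 for the difference between the responses, -0.080 in DMSO and -0.39 in sorafenib between the times. With the other replication and mitotic genes in place of the members it was 0.16, -0.089, -0.22, 0.082 and -0.12, so that the DMSO value reversed. With voom the sorafenib value was -0.44. Leaving out 1 library gave 0.067 to 0.11 at 48 hours, -0.29 to -0.26 for the difference between the responses, -0.10 to -0.070 in DMSO and -0.45 to -0.38 in sorafenib, where -0.45 and 0.067 were without sorafenib 48 hours replicate 2. Without the members on chromosomes 14 to 19 and X, the G2/M minus G1/S mean relative to DMSO at 48 hours was 0.11 in sorafenib at 48 hours and -0.25 in sorafenib at 7 days, in place of 0.085 and -0.31. For Kif20a the difference between the responses was 0.018 with all libraries and between -0.14 and 0.11 with 1 left out, called at -0.14 without sorafenib 48 hours replicate 2. The cause of these shifts was not tested. Replicate numbers did not pair the samples (correlations of deviations from -0.18 to 0.13), and with a replicate block 36, 37, 25, 28 and 35 members passed in place of 36, 37, 27, 28 and 37; the calls lost were those of Nusap1 and Orc1 for the difference between the responses and of Prim1 and Ttk in sorafenib between the times. Not called but called under 10 or more alternatives were Pole, Orc1 and Cdk1 at 48 hours, Pole in DMSO between the times, and Ccnb2, Mcm10 and Bub1 for the difference between the responses, where the call of Bub1b was lost under 7. The lowest member had 268 normalised counts, so depth set no limit on which members could be tested.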
